A study of Arabidopsis thaliana with 12 samples.

Results

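The 36 genes described here are the ER folding machinery of Arabidopsis thaliana and its stress sensors. They were taken by a fixed list of gene IDs that covers chaperones, folding enzymes, parts of ER-associated degradation and regulators of the unfolded protein response, out of 27655 genes in the deposited tables, and all 36 had a row in both. The endoplasmic reticulum (ER) is the compartment in which secreted and membrane proteins are folded, glycosylated and bridged by disulfide bonds. When unfolded proteins build up there, sensors in the ER membrane (the kinase and nuclease IRE1 and the membrane-tethered transcription factors bZIP28 and bZIP17) switch on genes for chaperones, folding enzymes and degradation. This programme is the unfolded protein response. In plants it is known for its part in heat, salt and pathogen responses and in tissues that secrete large amounts of protein.

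The material was wild-type Col-0, and each library came from the pooled whole shoots of about 300 seedlings aged 14 days. The medium held boric acid at 0.3 µM in the low-boron group, at 30 µM in the control group (Ctrl) and at 500 µM in the high-boron group. Boron cross-links the pectin of plant cell walls and is toxic in excess, and the design asks how each supply changes mRNA levels and translation. Each supply was measured in 2 biological replicates by RNA-seq and in 2 by ribosome profiling, in which the pieces of mRNA that ribosomes protect from a nuclease (footprints) are sequenced.

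RNA libraries held 7563365 to 9256564 counts in coding sequences and footprint libraries 6903881 to 24206655, the deepest being low-boron library 2. Libraries are called 2 and 3, their numbers in the tables, and levels are in CPM (counts scaled by edgeR to a common library size), given for library 2 and then library 3. A change is called when its adjusted p in edgeR's quasi-likelihood test, fitted over all genes, is under 0.05, and fold changes are log2 ± SE with 2 libraries per group. All 36 genes passed the filter on low counts in both assays. Levels of different genes are not compared, because no coding lengths were used here. The shoot label was checked with markers. Root markers (8 genes) summed to 9 to 20 counts per RNA library and 18 to 48 per footprint library, with 2 to 5 of them at 0 in each RNA library. Shoot markers (6 genes of photosynthesis, none at 0) took 2.94% to 3.16% of RNA counts in Ctrl, 2.23% to 2.26% under low boron, and 2.75% to 2.77% under high boron. In footprints they took 1.501% to 1.735%, 1.06% to 1.13% and 1.18% to 1.69%. In mRNA at low boron 4 of the 6 fell, carbonic anhydrase CA1 most (-1.27 ± 0.14), beside a 13.8% share of lower calls over every gene tested. The other 2 had changes above 0, up to 0.23, and were not called. Footprints of only 1 marker were called with low supply, as lower. High supply gave 2 higher markers and 1 lower marker in mRNA, and 1 of each in footprints. The part of these shifts in the results below was not tested. In whole shoots, fewer cells of a type and less RNA per cell cannot be told apart.

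At low boron, the mRNA of nearly the whole set was higher than in Ctrl. Of the 36 genes 32 rose, 0 fell and 4 were not called (ERO2, Hrd1A, IRE1-1 and BAG7), where 33.3% of the 18403 genes tested were called, 19.5% higher and 13.8% lower. Of the 32, 11 rose at least 2-fold, but the share of all genes that did so was not counted, so this number has no background here. The median log2 fold change of the 36 was 0.81 against 0.02 over all genes tested. At high boron 8 of the 36 fell and 0 rose, where 9.06% of all genes were called, 4.55% lower and 4.5% higher. Without the filter on low counts the 8 became 14, the added genes being ATERDJ3A, ATERDJ3B, AT4G16660, CNX1, CRT1a and NAC062. The 8 called genes were the chaperones BIP1, BIP2, BIP3 and SHD, the calreticulin CRT3 and the disulfide isomerases PDIL1-1, PDIL1-2 and PDIL2-2, and each of them also rose at low boron. The median at high boron was -0.25 against -0.01 over all genes. The 2 comparisons share the Ctrl libraries.

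**Figure D1:**
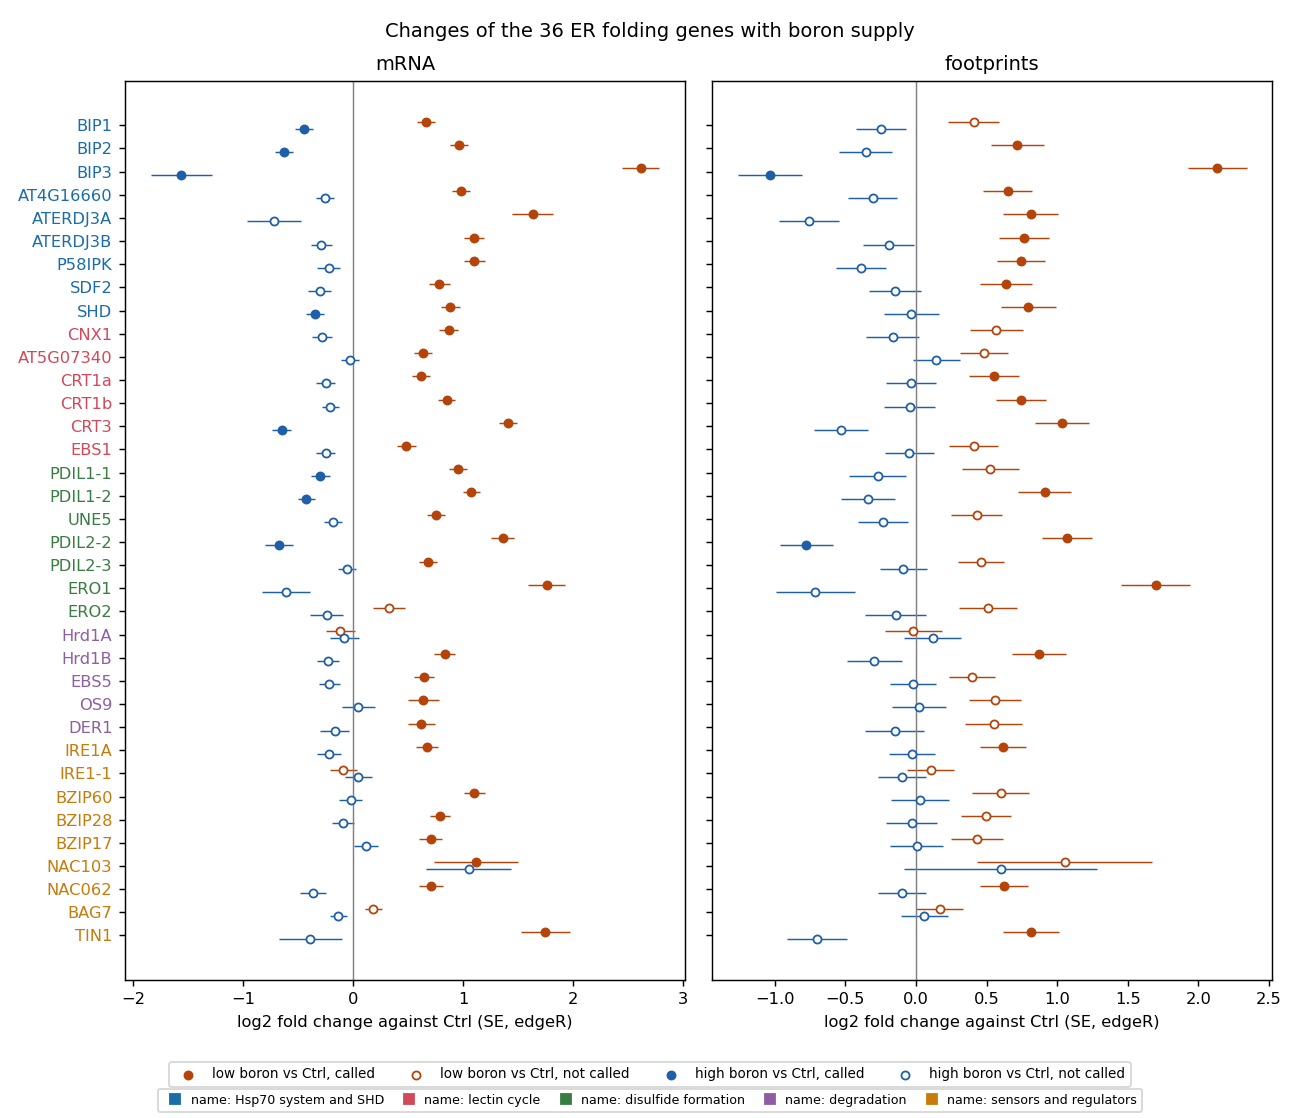
Log2 fold change against Ctrl (x axis) of each of the 36 genes (y axis, grouped by role) in mRNA and in footprints, with low boron in orange and high boron in blue, bars showing the SE of edgeR and filled points being called. In mRNA 32 orange points are filled to the right of 0 and 8 blue points to the left. In footprints 18 orange and 2 blue points are filled.

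All 9 genes of the Hsp70 system, the ER chaperone BiP with its cochaperones and the ER Hsp90, rose in mRNA at low boron. BIP3 (AT1G09080), the BiP gene best known for its induction by ER stress, changed most. Its mRNA stood at 6.08 and 4.38 CPM in Ctrl, 33.3 and 31.1 CPM under low boron, and 1.80 and 1.73 CPM under high boron. The 3 supplies did not overlap, and both libraries at low boron lay far above the rest. BIP3 rose by 2.62 ± 0.17 (adjusted p = 4.88e-08) at low boron, and its value at high boron was -1.57 ± 0.28 (adjusted p = 0.00238). BIP1 (AT5G28540) and BIP2 (AT5G42020) encode the BiP proteins made in unstressed tissue. BIP1 mRNA stood at 301 and 305 CPM in Ctrl, 490.2 and 469 CPM under low boron, and 209 and 234 CPM under high boron. BIP2 mRNA stood at 193 and 205 CPM in Ctrl, 402 and 373 CPM under low boron, and 123 and 134 CPM under high boron. In both genes low boron lay above Ctrl and high boron below it in every library. BIP1 changed by 0.66 ± 0.08 (adjusted p = 1.73e-05) in the first case and by -0.45 ± 0.08 (adjusted p = 0.00251) in the second. For BIP2 the changes were 0.96 ± 0.08 (adjusted p = 6.09e-07) and -0.63 ± 0.08 (adjusted p = 0.000223). Their coding sequences are nearly identical and how shared reads were assigned is not given in the sources used here, so the values of the single genes are uncertain. Summed over the pair, the mean level at low boron was 1.73 times that of Ctrl and at high boron 0.697 times.

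SHD (AT4G24190), the Hsp90 of the ER lumen, stood at 585 and 582 CPM in Ctrl, 1109.7 and 1044 CPM under low boron, and 424 and 493 CPM under high boron in mRNA. It rose by 0.88 ± 0.09 at low boron (adjusted p = 2.39e-06), and its value at high boron was -0.35 ± 0.09 (adjusted p = 0.0203). All libraries of the 3 supplies were apart in the order low, Ctrl, high. The fall of SHD was lost without low-boron library 2 (adjusted p = 0.0610), low-boron library 3 (0.0608) or high-boron library 2 (0.179, log2 fold change -0.23). ATERDJ3A (AT3G08970), ATERDJ3B (AT3G62600) and P58IPK (AT5G03160) carry the J domain that stimulates BiP. ATERDJ3A mRNA stood at 7.07 and 5.87 CPM in Ctrl, 22.8 and 17.4 CPM under low boron, and 3.85 and 4.00 CPM under high boron. ATERDJ3B mRNA stood at 84.3 and 72.8 CPM in Ctrl, 171 and 165 CPM under low boron, and 60.9 and 67.4 CPM under high boron. P58IPK mRNA stood at 46.5 and 41.7 CPM in Ctrl, 100.0 and 89.6 CPM under low boron, and 35.5 and 39.9 CPM under high boron. In all 3 cochaperones both low-boron libraries lay well above Ctrl and both high-boron libraries below it. They rose by 1.63 ± 0.19, 1.10 ± 0.09 and 1.10 ± 0.10 at low boron. At high boron their values were -0.72 ± 0.24, -0.29 ± 0.09 and -0.22 ± 0.10, none of them called (adjusted p = 0.0876, 0.0724 and 0.230). SDF2 (AT2G25110), a partner of ATERDJ3B in a complex with BiP, stood at 41.8 and 44.8 CPM in Ctrl, 76.1 and 73.0 CPM under low boron, and 32.2 and 37.6 CPM under high boron and rose by 0.78 ± 0.10. AT4G16660, which carries no symbol in RefSeq, stood at 168 and 151 CPM in Ctrl, 325 and 307 CPM under low boron, and 136 and 132 CPM under high boron and rose by 0.98 ± 0.08. Both had their high-boron libraries below Ctrl, at -0.31 ± 0.10 and -0.26 ± 0.08, not called (adjusted p = 0.0824 and 0.0712). Without Ctrl library 3, ATERDJ3B (0.0126) and AT4G16660 (0.0265) were called as lower at high boron. The 5 rises of ATERDJ3A, ATERDJ3B, P58IPK, SDF2 and AT4G16660 had adjusted p from 4.48e-07 to 1.85e-05. In RefSeq ATERDJ3A overlaps AT3G08960 and P58IPK overlaps FLA11, and whether the counting used strand is not given in the sources used here.

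In footprints, 8 of the 9 genes of the Hsp70 system rose at low boron, and BIP3 was the 1 that fell at high boron. Over the whole set 18 of 36 rose in footprints and 0 fell at low boron, where 15% of the 17697 genes tested were called, 8.05% higher and 6.92% lower. At high boron 2 fell and 0 rose, where 1.98% of all genes were called, 1.51% lower and 0.463% higher. BIP3 footprints stood at 16.3 and 20.7 CPM in Ctrl, 78.5 and 82.7 CPM under low boron, and 7.25 and 11.1 CPM under high boron. The supplies were apart in the same order as in mRNA, with a rise of 2.13 ± 0.21 (adjusted p = 8.41e-06) at low boron and a value of -1.04 ± 0.23 (adjusted p = 0.0268) at high boron. The fall of BIP3 was lost without Ctrl library 2 (0.0550), Ctrl library 3 (0.124) or high-boron library 2 (0.282). BIP2 footprints stood at 215 and 289.6 CPM in Ctrl, 427 and 402 CPM under low boron, and 194 and 199 CPM under high boron. SHD footprints stood at 961 and 1111 CPM in Ctrl, 1774 and 1826 CPM under low boron, and 1056 and 969.9 CPM under high boron. For BIP2 and SHD both low-boron libraries were above Ctrl, and high boron overlapped Ctrl for SHD. They rose by 0.72 ± 0.19 (adjusted p = 0.0168) and 0.80 ± 0.19 (0.0115) at low boron. BIP1 footprints stood at 411 and 479 CPM in Ctrl, 598 and 582 CPM under low boron, and 371 and 379 CPM under high boron. They too were apart in the order low, Ctrl, high, and the value at low boron was 0.41 ± 0.18 (adjusted p = 0.147). BIP1 and BIP2 footprints summed were 1.44 times Ctrl at low and 0.820 times at high boron.

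ATERDJ3A, ATERDJ3B, P58IPK, SDF2 and AT4G16660 also rose in footprints at low boron. ATERDJ3A footprints stood at 12.01 and 13.5 CPM in Ctrl, 23.1 and 21.4 CPM under low boron, and 7.47 and 7.53 CPM under high boron. ATERDJ3B footprints stood at 48.9 and 53.2 CPM in Ctrl, 92.2 and 81.0 CPM under low boron, and 49.9 and 39.0 CPM under high boron. P58IPK footprints stood at 46.3 and 49.0 CPM in Ctrl, 82.6 and 76.7 CPM under low boron, and 39.7 and 32.6 CPM under high boron. Each had both low-boron libraries above Ctrl, and the high-boron libraries of ATERDJ3A and P58IPK were below it. SDF2 footprints stood at 47.5 and 64.8 CPM in Ctrl, 82.9 and 91.6 CPM under low boron, and 50.4 and 50.7 CPM under high boron. Those of AT4G16660 stood at 165 and 185 CPM in Ctrl, 283 and 267 CPM under low boron, and 150.2 and 132 CPM under high boron. Low boron again lay above Ctrl in both genes. High boron overlapped Ctrl for SDF2 and lay below it for AT4G16660. The rises were 0.81 ± 0.20 for ATERDJ3A, 0.76 ± 0.18 for ATERDJ3B, 0.74 ± 0.17 for P58IPK, 0.64 ± 0.18 for SDF2 and 0.65 ± 0.17 for AT4G16660, with adjusted p from 0.00851 to 0.0273. Of the 8 footprint rises in the Hsp70 system only that of BIP3 remained called without each single library. The other 7 were lost without low-boron library 2 (adjusted p from 0.0534 to 0.131) or Ctrl library 2 (0.0683 to 0.243). Without low-boron library 3, 6 of them were lost (0.0546 to 0.216), the exception being ATERDJ3B.

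**Figure D2:**
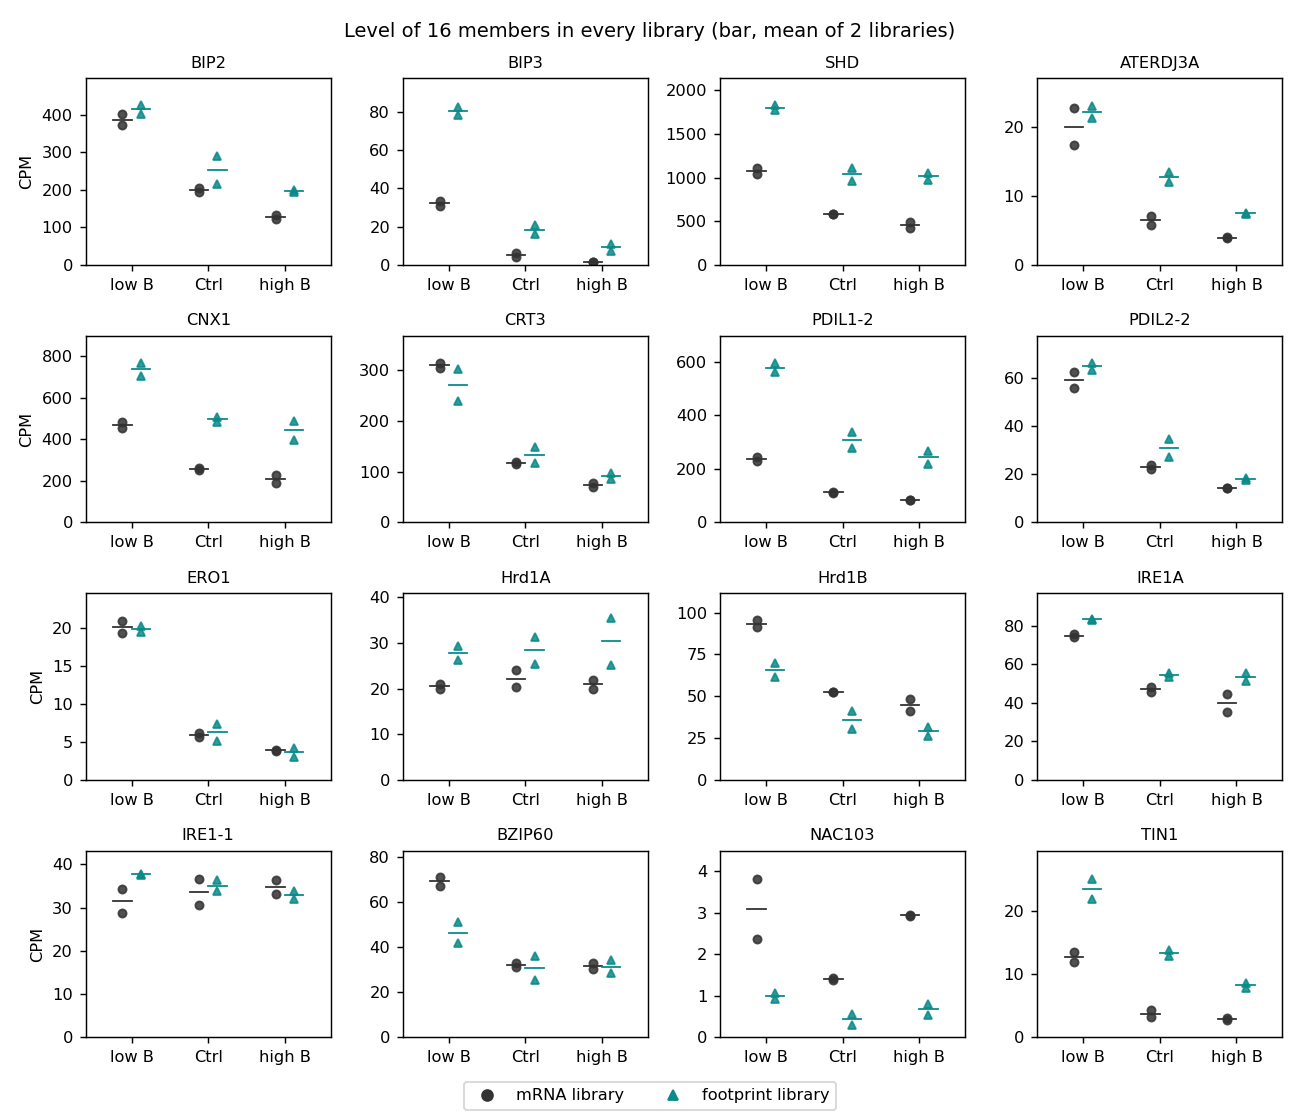
Level in CPM (y axis, from 0) of 16 of the genes in every library at low boron, in Ctrl and at high boron, with RNA libraries as black circles, footprint libraries as teal triangles and bars at the mean of 2 libraries. Relative to their Ctrl level, not in CPM, BIP3, ERO1 and TIN1 rose most at low boron in mRNA, while the RNA libraries of Hrd1A and IRE1-1 overlap between supplies.

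In the lectin cycle, calnexins and calreticulins hold N-glycosylated proteins in the ER until they fold, and all 6 members rose in mRNA at low boron. CRT3 (AT1G08450), a plant-specific calreticulin known for the maturation of an immune receptor, rose most. Its mRNA stood at 118 and 115 CPM in Ctrl, 304 and 314 CPM under low boron, and 69.9 and 78.1 CPM under high boron. No library of one supply overlapped those of another, and the changes were 1.41 ± 0.08 (adjusted p = 1.64e-08) at low and -0.65 ± 0.08 (adjusted p = 0.000208) at high boron. CRT1a (AT1G56340) and CRT1b (AT1G09210) are the general calreticulins. CRT1a mRNA stood at 319 and 333 CPM in Ctrl, 511 and 489 CPM under low boron, and 255 and 294 CPM under high boron. CRT1b mRNA stood at 197 and 201 CPM in Ctrl, 359.6 and 359 CPM under low boron, and 166 and 179 CPM under high boron. CNX1 (AT5G61790), a calnexin of the ER membrane, stood at 261 and 251 CPM in Ctrl, 481 and 453 CPM under low boron, and 190.5 and 228 CPM under high boron. In these 3 genes low boron lay above and high boron below Ctrl in every library. AT5G07340, without a symbol in RefSeq, stood at 84.6 and 79.7 CPM in Ctrl, 133 and 123 CPM under low boron, and 81.2 and 80.1 CPM under high boron, with high boron overlapping Ctrl. EBS1 (AT1G71220) is the glucosyltransferase that returns misfolded glycoproteins to the cycle, and its mRNA stood at 151 and 162 CPM in Ctrl, 220.2 and 218 CPM under low boron, and 122 and 141 CPM under high boron, again apart in the order low, Ctrl, high. The rises were 0.62 ± 0.08 for CRT1a, 0.85 ± 0.08 for CRT1b, 0.87 ± 0.09 for CNX1, 0.64 ± 0.08 for AT5G07340 and 0.48 ± 0.09 for EBS1, with adjusted p from 1.13e-06 to 0.000488. At high boron these 5 ranged from -0.29 ± 0.09 (CNX1, adjusted p = 0.0660) to -0.03 ± 0.08 (AT5G07340, adjusted p = 0.898), and none was called. Leaving out high-boron library 3 called CNX1 (0.0133), CRT1a (0.0286) and EBS1 (0.0393) as lower, and CNX1 was also called without Ctrl library 3, just under the threshold, and under limma voom (0.0482).

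Of the lectin cycle 3 genes rose in footprints at low boron, and at high boron 0 were called. CRT3 footprints stood at 117 and 148 CPM in Ctrl, 239 and 302 CPM under low boron, and 85.1 and 98.2 CPM under high boron. CRT1a footprints stood at 537 and 550.0 CPM in Ctrl, 779 and 817 CPM under low boron, and 536 and 525 CPM under high boron. CRT1b footprints stood at 211 and 255 CPM in Ctrl, 378 and 403 CPM under low boron, and 218 and 234 CPM under high boron. Both low-boron libraries of all 3 were above Ctrl, and high boron was below it for CRT3 and, by a small margin, for CRT1a. The rises were 1.03 ± 0.19 (adjusted p = 0.00184), 0.55 ± 0.18 (0.0483) and 0.74 ± 0.18 (0.0104). CNX1 footprints stood at 486 and 509 CPM in Ctrl, 769 and 707 CPM under low boron, and 397 and 490.2 CPM under high boron. Low boron was above Ctrl and high boron overlapped it, as in AT5G07340 and EBS1. These 3 genes were at 0.57 ± 0.19 (CNX1, adjusted p = 0.0516), 0.48 ± 0.17 (AT5G07340, 0.0661) and 0.41 ± 0.17 (EBS1, 0.128). CNX1 lay near the threshold and was called under 9 alternatives, among them DESeq2 (0.0116), limma voom (0.0346), no filter on low counts (0.0285) and the fit without high-boron library 2 (0.0311) or 3 (0.0383). AT5G07340 was called under DESeq2 (0.0421) and the strict filter (0.0471). CRT1a was lost without low-boron library 2 (0.163) or 3 (0.274), or Ctrl library 2 (0.178) or 3 (0.111). CRT1b was lost without low-boron library 3 (0.109) or Ctrl library 2 (0.101).

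Disulfide bonds in the ER are formed by protein disulfide isomerases (PDI), which are re-oxidised by ER oxidoreductins, and 6 of 7 such genes rose in mRNA at low boron. ERO1 (AT1G72280) mRNA stood at 6.19 and 5.64 CPM in Ctrl, 20.9 and 19.3 CPM under low boron, and 3.98 and 3.79 CPM under high boron. The other oxidase gene, ERO2 (AT2G38960), stood at 18.0 and 16.2 CPM in Ctrl, 21.8 and 21.2 CPM under low boron, and 12.7 and 16.1 CPM under high boron. The ERO1 libraries at low boron were over 3 times those of Ctrl, while those of ERO2 were only slightly higher. ERO1 rose by 1.76 ± 0.17 (adjusted p = 2.21e-06) and ERO2 was at 0.33 ± 0.14 (adjusted p = 0.0946). The difference between the 2 genes was not tested. At high boron they were at -0.61 ± 0.22 and -0.24 ± 0.15, not called (adjusted p = 0.110 and 0.388).

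Among the isomerases PDIL2-2 (AT1G04980) changed most in mRNA. It stood at 22.3 and 23.8 CPM in Ctrl, 62.6 and 56.0 CPM under low boron, and 14.5 and 14.4 CPM under high boron. PDIL1-2 (AT1G77510) mRNA stood at 115 and 111 CPM in Ctrl, 244 and 231 CPM under low boron, and 82.9 and 85.2 CPM under high boron. PDIL1-1 (AT1G21750) mRNA stood at 208 and 238 CPM in Ctrl, 432 and 433 CPM under low boron, and 176 and 187 CPM under high boron. In all 3 isomerase genes the supplies were apart in the order low, Ctrl, high. PDIL2-2 rose by 1.36 ± 0.11 (adjusted p = 2.8e-07), and its value at high boron was -0.68 ± 0.13 (adjusted p = 0.00306). PDIL1-2 rose by 1.07 ± 0.08 (1.19e-07) and was at -0.43 ± 0.08 (0.00341) at high boron. PDIL1-1 rose by 0.95 ± 0.08 (9.02e-07), and its fall at high boron (-0.30 ± 0.09, 0.0412) was lost without low-boron library 2 (0.100) or 3 (0.0997), Ctrl library 3 (0.247, log2 fold change -0.20), or high-boron library 2 (0.233) or 3 (0.0592). UNE5 (AT2G47470), the gene of PDIL2-1, stood at 185 and 189 CPM in Ctrl, 317 and 312 CPM under low boron, and 154 and 175 CPM under high boron in mRNA. PDIL2-3 (AT2G32920) mRNA stood at 62.6 and 67.3 CPM in Ctrl, 105 and 103 CPM under low boron, and 62.7 and 62.0 CPM under high boron. Low boron was above Ctrl in both, and high boron overlapped Ctrl for PDIL2-3. UNE5 rose by 0.75 ± 0.08 (6.37e-06) and PDIL2-3 by 0.68 ± 0.08 (1.59e-05). In RefSeq UNE5 overlaps AT2G47480.

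Of the 7 disulfide genes 3 rose in footprints at low boron, and PDIL2-2 was the 1 that fell at high boron. ERO1 footprints stood at 5.15 and 7.33 CPM in Ctrl, 19.4 and 20.2 CPM under low boron, and 4.22 and 3.01 CPM under high boron. PDIL1-2 footprints stood at 337 and 276 CPM in Ctrl, 594 and 561 CPM under low boron, and 217 and 269 CPM under high boron. PDIL2-2 footprints stood at 34.5 and 27.0 CPM in Ctrl, 66.3 and 63.4 CPM under low boron, and 18.5 and 17.5 CPM under high boron. The supplies were apart in all 3, in the order low, Ctrl, high. Their rises were 1.70 ± 0.24 (adjusted p = 0.000253), 0.91 ± 0.19 (0.00427) and 1.07 ± 0.18 (0.000919), and all 3 remained called without each single library. At high boron PDIL2-2 fell (-0.78 ± 0.19, 0.0447), a call lost without low-boron library 2 (0.0817) or 3 (0.0795), Ctrl library 2 (0.352) or high-boron library 2 (0.156) or 3 (0.139). PDIL1-1 footprints stood at 722 and 557 CPM in Ctrl, 969 and 874 CPM under low boron, and 474 and 587 CPM under high boron. Low boron was above Ctrl in it and in UNE5, PDIL2-3 and ERO2, and high boron lay below Ctrl for UNE5 and ERO2. These 4 genes had values of 0.53 ± 0.20, 0.43 ± 0.18, 0.46 ± 0.16 and 0.51 ± 0.20 at low boron, none of them called (adjusted p = 0.0937, 0.123, 0.0727 and 0.108). DESeq2 called PDIL1-1 (0.0423) and PDIL2-3 (0.0491), and PDIL1-1 was also called with no filter on low counts (0.0483).

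ER-associated degradation carries misfolded proteins back to the cytosol, and 4 of its 5 genes here rose in mRNA at low boron, with 0 called at high boron. Hrd1A (AT3G16090) and Hrd1B (AT1G65040) encode the ubiquitin ligases of the ER membrane. Hrd1B mRNA stood at 52.6 and 52.3 CPM in Ctrl, 91.1 and 95.6 CPM under low boron, and 48.6 and 41.2 CPM under high boron. Hrd1A mRNA stood at 24.1 and 20.3 CPM in Ctrl, 20.9 and 20.0 CPM under low boron, and 19.9 and 22.0 CPM under high boron. Low-boron libraries lay far above Ctrl for Hrd1B and overlapped Ctrl for Hrd1A. Hrd1B rose by 0.83 ± 0.09 (adjusted p = 7.7e-06) and Hrd1A was at -0.12 ± 0.13 (0.540), and the difference between the 2 genes was not tested. EBS5 (AT1G18260), the Arabidopsis HRD3A that brings substrates to the ligase, stood at 49.2 and 55.4 CPM in Ctrl, 78.9 and 84.3 CPM under low boron, and 43.6 and 46.1 CPM under high boron. OS9 (AT5G35080), a lectin that recognises glycans of misfolded proteins, stood at 15.8 and 16.5 CPM in Ctrl, 27.1 and 23.1 CPM under low boron, and 14.9 and 18.3 CPM under high boron. DER1 (AT4G29330), of the Derlin family, stood at 22.3 and 27.4 CPM in Ctrl, 36.1 and 40.4 CPM under low boron, and 21.2 and 23.0 CPM under high boron. All 3 had both low-boron libraries above Ctrl, and for OS9 and DER1 high boron overlapped Ctrl. They rose by 0.64 ± 0.09 (adjusted p = 7.19e-05), 0.64 ± 0.14 (0.00292) and 0.62 ± 0.12 (0.00128). The rise of OS9 was lost without low-boron library 2 (0.0593).

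In footprints 1 of these 5 genes was called at low boron. Hrd1B footprints stood at 30.6 and 41.3 CPM in Ctrl, 61.5 and 69.6 CPM under low boron, and 31.6 and 26.4 CPM under high boron. Both low-boron libraries lay above Ctrl, and the high-boron libraries overlapped it. It rose by 0.87 ± 0.19 (adjusted p = 0.00592). This rise was not called without low-boron library 3 (0.0749) or Ctrl library 2 (0.0877). Hrd1A footprints stood at 25.3 and 31.4 CPM in Ctrl, 29.3 and 26.3 CPM under low boron, and 35.5 and 25.2 CPM under high boron, with both supplies overlapping Ctrl. EBS5, OS9 and DER1 had low boron above Ctrl and high boron overlapping it. EBS5 was at 0.40 ± 0.16 (0.121), OS9 at 0.56 ± 0.19 (0.0548), DER1 at 0.55 ± 0.21 (0.0859) and Hrd1A at -0.02 ± 0.20 (0.970). With no filter on low counts OS9 (0.0462) and DER1 (0.0354) were called, OS9 also without organelle-encoded genes (0.0477).

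Of the 9 genes listed as sensors and regulators, TIN1 and the cochaperone gene BAG7 among them, 7 rose in mRNA at low boron. At high boron 0 were called. The 2 IRE1 genes encode the sensors that splice bZIP60 mRNA. IRE1A (AT2G17520) mRNA stood at 48.1 and 45.6 CPM in Ctrl, 73.8 and 75.5 CPM under low boron, and 35.4 and 44.6 CPM under high boron. IRE1-1 (AT5G24360), also named IRE1B, stood at 36.6 and 30.6 CPM in Ctrl, 28.8 and 34.4 CPM under low boron, and 36.4 and 33.2 CPM under high boron. For IRE1A both low-boron libraries were above Ctrl, and both supplies overlapped Ctrl for IRE1-1. IRE1A rose by 0.67 ± 0.10 (adjusted p = 0.000144) and IRE1-1 was at -0.09 ± 0.12 (0.618), a difference between genes that was not tested. BZIP60 (AT1G42990) encodes the transcription factor made from that spliced mRNA, and it stood at 31.4 and 33.1 CPM in Ctrl, 67.1 and 71.3 CPM under low boron, and 33.0 and 30.5 CPM under high boron. Both low-boron libraries held over 2 times the Ctrl level and high boron overlapped Ctrl, with a rise of 1.10 ± 0.09 (6.67e-07). Counts were summed over 1 coding sequence, so spliced and unspliced BZIP60 mRNA are not separated. BZIP28 (AT3G10800) and BZIP17 (AT2G40950) encode membrane-tethered factors that are cut free in the Golgi under stress. BZIP28 mRNA stood at 32.8 and 32.2 CPM in Ctrl, 57.1 and 55.5 CPM under low boron, and 30.8 and 30.2 CPM under high boron. BZIP17 mRNA stood at 33.4 and 29.4 CPM in Ctrl, 49.7 and 52.6 CPM under low boron, and 31.6 and 36.3 CPM under high boron. Low boron was above Ctrl in both genes, and high boron overlapped Ctrl for BZIP17. They rose by 0.79 ± 0.09 (1.33e-05) and 0.70 ± 0.11 (0.000138).

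NAC103 (AT5G64060) and NAC062 (AT3G49530) are NAC transcription factors of the response, NAC103 acting downstream of bZIP60 and NAC062 being tethered to the plasma membrane. NAC062 mRNA stood at 26.5 and 32.1 CPM in Ctrl, 47.6 and 48.3 CPM under low boron, and 23.1 and 22.5 CPM under high boron. NAC103 mRNA stood at 1.44 and 1.38 CPM in Ctrl, 2.37 and 3.81 CPM under low boron, and 2.95 and 2.92 CPM under high boron, from 12 to 32 counts per library. NAC062 libraries were apart in the order low, Ctrl, high, whereas NAC103 was above Ctrl at both supplies. NAC062 rose by 0.71 ± 0.11 (adjusted p = 0.000158). At high boron it was at -0.36 ± 0.12 (0.0760) and was called without Ctrl library 2 (0.0138). NAC103 was called at low boron (1.12 ± 0.38, 0.0351) and not at high boron (1.05 ± 0.39, 0.115). That call was lost in DESeq2 (0.173) and without low-boron library 3 (0.328, log2 fold change 0.75), Ctrl library 2 (0.0894) or 3 (0.101), or high-boron library 2 (0.0524). TIN1 (AT5G64510), named for its induction by tunicamycin, an inhibitor of N-glycosylation, stood at 4.31 and 3.22 CPM in Ctrl, 11.9 and 13.6 CPM under low boron, and 3.08 and 2.70 CPM under high boron. BAG7 (AT5G62390), an ER-resident BAG cochaperone that moves to the nucleus under heat, stood at 176 and 188 CPM in Ctrl, 202 and 212 CPM under low boron, and 159.7 and 172 CPM under high boron. For TIN1 low boron lay far above Ctrl, while the BAG7 libraries at low boron were above Ctrl by a small margin. TIN1 rose by 1.75 ± 0.22 (2.83e-05) and BAG7 was at 0.18 ± 0.08 (0.0913). In RefSeq BAG7 overlaps NAC101.

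In footprints 3 of the 9 genes listed as sensors and regulators rose at low boron, namely IRE1A, NAC062 and TIN1, and 0 were called at high boron. IRE1A footprints stood at 55.3 and 53.1 CPM in Ctrl, 82.9 and 83.5 CPM under low boron, and 55.2 and 51.1 CPM under high boron. NAC062 footprints stood at 52.9 and 51.5 CPM in Ctrl, 75.9 and 85.3 CPM under low boron, and 51.0 and 46.4 CPM under high boron. TIN1 footprints stood at 12.9 and 13.8 CPM in Ctrl, 21.9 and 25.1 CPM under low boron, and 7.84 and 8.63 CPM under high boron. In all 3 low boron was above Ctrl, and high boron was below it for NAC062 and TIN1. They rose by 0.62 ± 0.16 (adjusted p = 0.0186), 0.62 ± 0.17 (0.0196) and 0.82 ± 0.20 (0.0105). Without low-boron library 2 the calls of IRE1A and NAC062 were lost (0.112 and 0.0667), and without low-boron library 3 or Ctrl library 2 all 3 were lost (0.134 to 0.218 and 0.0726 to 0.0819). Without Ctrl library 3 those of IRE1A and NAC062 were lost (0.0643 and 0.0657). BZIP60 footprints stood at 25.6 and 36.1 CPM in Ctrl, 41.8 and 51.1 CPM under low boron, and 28.5 and 34.2 CPM under high boron. BZIP28 footprints stood at 33.7 and 32.7 CPM in Ctrl, 48.4 and 45.2 CPM under low boron, and 29.2 and 36.2 CPM under high boron. BZIP17 footprints stood at 27.5 and 25.4 CPM in Ctrl, 37.9 and 33.6 CPM under low boron, and 23.7 and 29.9 CPM under high boron. Every low-boron library of these 3 factors was above Ctrl and high boron overlapped Ctrl, yet none was called at low boron (0.60 ± 0.20, 0.50 ± 0.18 and 0.43 ± 0.18, adjusted p = 0.0572, 0.0707 and 0.131). BZIP60 was called under limma voom (0.0454), with no filter on low counts (0.0187), without organelle-encoded genes (0.0420), without Ctrl library 3 (0.0250, log2 fold change 0.87) and without high-boron library 2 (0.0435). IRE1-1 footprints stood at 36.3 and 33.9 CPM in Ctrl, 37.6 and 37.9 CPM under low boron, and 32.0 and 33.8 CPM under high boron. NAC103 footprints stood at 0.572 and 0.293 CPM in Ctrl, 0.926 and 1.05 CPM under low boron, and 0.814 and 0.548 CPM under high boron. BAG7 footprints stood at 111 and 127 CPM in Ctrl, 137 and 130.1 CPM under low boron, and 124 and 125 CPM under high boron. These 3 genes had low boron above Ctrl, by small margins for IRE1-1 and BAG7, with values of 0.10 ± 0.17, 1.06 ± 0.62 and 0.17 ± 0.17 and no call (adjusted p = 0.749, 0.294 and 0.572).

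Across the set, low-boron libraries were above Ctrl without overlap for 34 of 36 genes in mRNA and 35 of 36 in footprints, where 36.4% and 29.1% of all genes tested were. At high boron 27 of 36 lay below Ctrl in mRNA and 16 in footprints, against 25.3% and 18.0% of all genes. Of the 32 genes that rose in mRNA at low boron 18 also rose in footprints and 14 did not pass in footprints. The count of 18 was 8 without low-boron library 2, 6 without low-boron library 3 and 5 without Ctrl library 2, and 5 genes (BIP3, CRT3, PDIL1-2, PDIL2-2 and ERO1) were called under every alternative that tested them. In mRNA this held for 30 of the 32, the exceptions being OS9 and NAC103.

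Set directly against low boron, high boron gave lower mRNA for 33 of 36 genes and higher mRNA for 0, where 42.4% of all genes were called, 23.1% lower and 19.3% higher. Footprints were lower for 26 and higher for 0, where 20.7% were called, 11.3% lower and 9.33% higher. The median log2 difference was -1.07 in mRNA and -0.71 in footprints. The largest belonged to BIP3 in mRNA (-4.18 ± 0.21, adjusted p = 1.4e-09) and in footprints (-3.17 ± 0.22, 8.7e-08), followed in both by ERO1 (-2.37 ± 0.19 and -2.41 ± 0.25). The 3 genes without a call in mRNA were Hrd1A (0.03 ± 0.13, 0.858), IRE1-1 (0.14 ± 0.12, 0.397) and NAC103 (-0.07 ± 0.34, 0.890). ERO2 and BAG7, not called against Ctrl, were lower at high than at low boron in mRNA (-0.57 ± 0.15, 0.00600, and -0.32 ± 0.08, 0.00491). ERO2 was lost without high-boron library 2 (0.0880), OS9 without that library (0.0603) or low-boron library 2 (0.0664), and BAG7 without high-boron library 2 (0.0636) or low-boron library 3 (0.0751). The footprint count of 26 was 17 without low-boron library 2 and 15 without low-boron library 3.

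The set took a larger share of all counts at low boron. In mRNA the 36 genes summed to 0.372% and 0.373% of counts in Ctrl, 0.669% and 0.649% under low boron, and 0.301% and 0.321% under high boron. In footprints the shares were 0.565% and 0.580%, 0.883% and 0.928%, and 0.516% and 0.515%. In both assays low boron lay above and high boron below Ctrl, at 1.77 and 0.835 times its mean in mRNA and 1.58 and 0.900 times in footprints. By role, the low-boron ratio in mRNA was 1.88 for disulfide formation, 1.87 for the Hsp70 system, 1.75 for the lectin cycle, 1.54 for degradation and 1.41 for sensors and regulators. In footprints it was 1.55, 1.67, 1.56, 1.44 and 1.37 in the same order. Genes with many counts weigh most in these sums, among them BAG7, which was not called, in the sensors and regulators. The median log2 fold changes of single genes at low boron were 0.95, 0.98, 0.74, 0.64 and 0.71 in mRNA, in that order of roles. Those in footprints were 0.53, 0.74, 0.56, 0.55 and 0.60. Differences between roles were not tested.

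**Figure D3:**
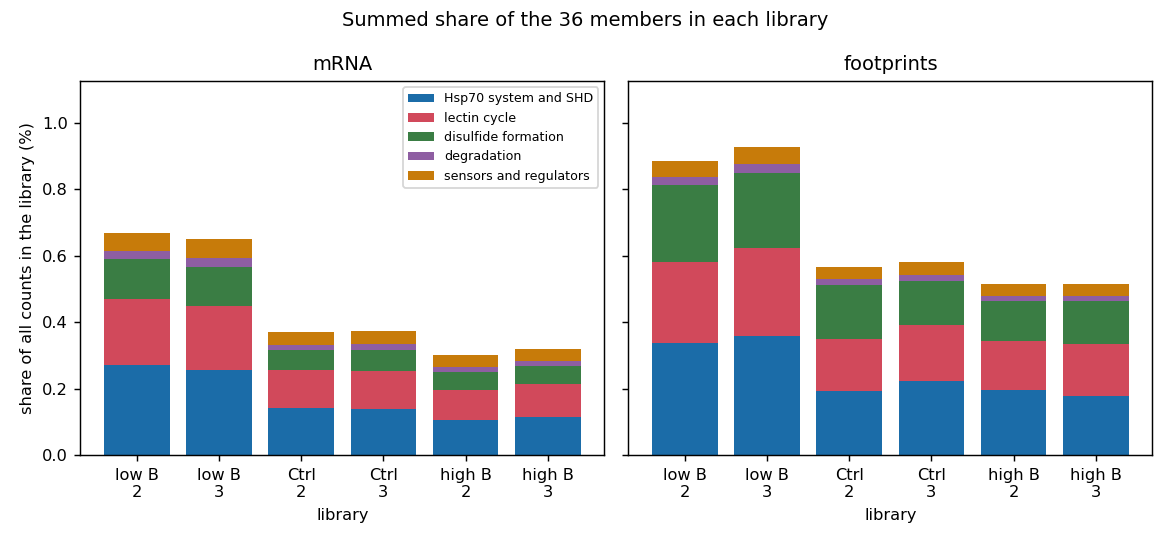
Summed share of all counts (%, y axis) taken by the 36 genes in each library (x axis), stacked by role, in mRNA and in footprints. The low-boron bars reach 0.669% and 0.649% in mRNA and 0.883% and 0.928% in footprints, above both Ctrl bars of the same assay.

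Translation efficiency compares a gene's footprints with its mRNA, and a change in it means that the assays moved by different amounts. The edgeR test over both assays called 0 of the 36 genes in any of the 3 comparisons. Over all 17306 genes tested, 0.0231% were called higher and 0% lower at low boron, 0.0347% and 0.699% at high boron (0.734% in all), and 0.352% and 1.24% for high against low boron (1.59% in all). DESeq2 and limma voom also called 0 members in each comparison. At an unadjusted p under 0.05 there were 3 members at low boron, 0 at high boron and 10 for high against low boron, where 6.24%, 8.25% and 10.2% of all genes tested had such a p. Those at low boron were TIN1 (-0.93 ± 0.28, adjusted p = 0.568), ATERDJ3A (-0.82 ± 0.26, 0.643) and BZIP60 (-0.50 ± 0.23, 0.793), each with a larger mRNA than footprint change. The estimate was below 0 for 32 of 36 genes at low boron, with a median of -0.19 against -0.06 over all genes. For high against low boron it was above 0 for 31 of 36, with a median of 0.28 against 0.11. The medians of all genes lay on the same sides of 0, and the shares of all genes on those sides were not counted. Both comparisons use the same low-boron libraries, so the 2 counts are not independent. For high against low boron the highest estimate was that of BIP3 (1.00 ± 0.35, adjusted p = 0.232). A p that misses the threshold does not show that mRNA and footprints moved alike.

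**Figure D4:**
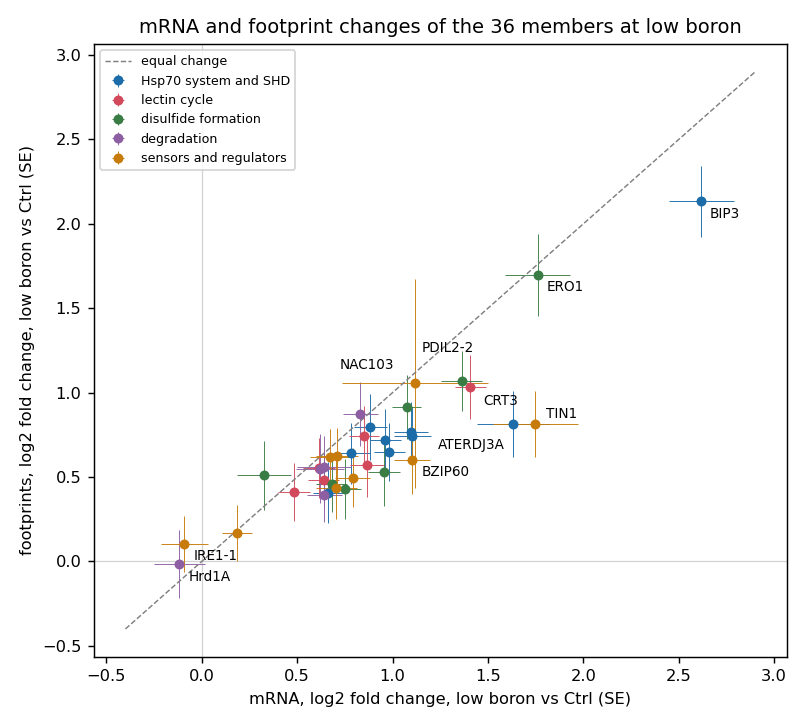
Log2 fold change at low boron against Ctrl in mRNA (x axis) and in footprints (y axis) for the 36 genes, coloured by role, with SE bars and a dashed line of equal change. Most points lie above 0 on both axes and below the line, TIN1 and ATERDJ3A farthest below it, and none of these differences was called.

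In Ctrl shoots the members carried more footprint CPM per mRNA CPM than most genes. The ratio had a median of 1.19 over the 36 genes and 0.752 over all 17306 genes tested, and 31 of 36 members were above the latter. Both counts cover the same coding sequence of a gene, so its length cancels. TIN1 and BIP3 stood highest. TIN1 was at 3.54 in Ctrl, 1.85 at low and 2.85 at high boron, and BIP3 at 3.54, 2.50 and 5.20. Both rest on few RNA counts, 39 and 28 in the Ctrl libraries and 24 and 25 in the high-boron libraries for TIN1, and 55 and 38 and then 14 and 16 for BIP3. PDIL1-1 (2.87), PDIL1-2 (2.72) and UNE5 (2.05) followed in Ctrl. The lowest were NAC103 (0.307), which rests on few counts, ERO2 (0.638), ATERDJ3B (0.650), BAG7 (0.654) and Hrd1B (0.686). Among the 31 members with a mean of 50 or more counts in every group of both assays the median was 1.17, against 0.818 over the 12057 genes that passed the same limit. The 5 members under it were TIN1, BIP3, NAC103, ATERDJ3A and ERO1.

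**Figure D5:**
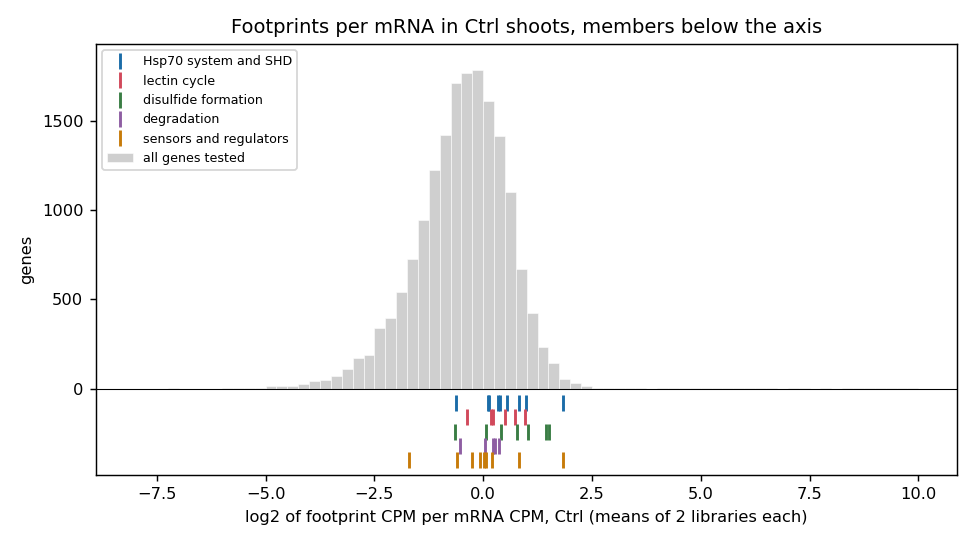
Histogram of the log2 ratio of footprint CPM to mRNA CPM in Ctrl (x axis) over the 17303 genes with counts in both assays (y axis, genes per bin), with the 36 members as coloured ticks below the axis by role. The members' ticks lie mostly to the right of the centre of the histogram, TIN1 and BIP3 farthest right and NAC103 farthest left.

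Neighbouring steps of the secretory pathway, taken from lists of genes outside the 36, changed in part at low boron. Over these lists 35 of the 59 genes tested rose in mRNA (59.3%), where 19.5% of all genes tested did. In footprints 8 of the 59 rose (13.6%), where 8.05% of all genes tested did. For protein entry, 15 of 19 tested genes of the translocon and signal peptidase list rose in mRNA and 4 in footprints, with AT3G60540 (1.68 ± 0.30, adjusted p = 0.000598) and AT4G24920 (1.01 ± 0.13, 2.36e-05) the largest in mRNA. For N-glycosylation 6 of 12 rose in mRNA and 0 in footprints, led by AT1G61790 (0.57 ± 0.08, 0.000107), the OST3/6 subunit of the oligosaccharyltransferase. Of 8 further PDI genes 3 rose in mRNA and 1 in footprints, led by PDIL1-3 (1.20 ± 0.12, 3.34e-06, and in footprints 0.93 ± 0.17, 0.00144). Of 9 further degradation genes 4 rose in mRNA and 0 in footprints, led by AtCDC48B (0.90 ± 0.13, 8.68e-05), of the CDC48 family that extracts proteins from membranes. Of 5 genes of ER to Golgi traffic 4 rose in mRNA and 1 in footprints, led by ERD2 (1.18 ± 0.18, 0.000154), the receptor that returns escaped ER proteins. Of 6 further stress regulators 3 rose in mRNA and 2 in footprints, led by the heat shock factor HSF4 (1.74 ± 0.11, 4.16e-08) and the cell death suppressor BI1 (1.06 ± 0.09, 1.07e-06). The median log2 fold changes in mRNA of these 6 lists were 0.58, 0.30, 0.21, 0.27, 0.29 and 0.34, against 0.81 for the 36 genes. The difference between the lists was not tested. Leaving out low-boron RNA library 2 or 3 reduced the further PDI genes to 1 and the traffic genes to 2 or 1, and without Ctrl library 3 the traffic genes were 2. Without low-boron RNA library 3 the further degradation genes were 2. The footprint count of the translocon list was 2 or 1 without low-boron library 2 or 3, 1 without Ctrl library 2 and 8 without high-boron library 2. Those of traffic (0 without low-boron library 2 or 3 or Ctrl library 2) and of the regulators (1, 0, 0 and 1 without low-boron library 2, low-boron library 3, Ctrl library 2 and Ctrl library 3) moved likewise. Without Ctrl library 3 the footprint counts of N-glycosylation and further degradation were 1 each.

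At high boron 2 of the 59 genes tested in these lists were called in mRNA, both lower (3.39%, where 4.55% of all genes were lower), and 0 of 59 in footprints. They were PDIL1-3 (-0.63 ± 0.14, adjusted p = 0.00824), lost without high-boron library 2 (0.111), and AT2G34250 of the translocon list (-0.28 ± 0.08, 0.0424), lost without low-boron library 2 (0.105) or 3 (0.106), Ctrl library 3 (0.164) or high-boron library 2 (0.255).

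Chaperones of the cytosol were listed for comparison. Their counts are read beside the shares of every gene tested. Higher calls with low supply made up 19.5% of mRNA and 8.05% of footprint tests. Lower calls with high supply made up 4.55% and 1.51%. Whether the list departs from these shares was not tested. Of 18 tested cytosolic heat shock genes 6 rose in mRNA at low boron, led by Hsp70-2 (1.37 ± 0.13, adjusted p = 1.35e-06) and HSP90.1 (1.21 ± 0.11, 1.76e-06), with a list median of 0.52. In footprints 1 of 18 rose, Hsp70-2 (0.73 ± 0.19, 0.0155), and the median was -0.12. The rise of Hsp70-2 footprints was lost without low-boron library 2 (0.152) or Ctrl library 2 (0.119). For translation efficiency at low boron 0 of 17 were called and 7 had an unadjusted p under 0.05, as did 6.24% of all genes tested, and the list median was -0.63. DESeq2 and limma voom also called 0 of them. At high boron 3 fell in mRNA, led by HSC70-1 (-0.36 ± 0.08, 0.00994) and J2 (-0.31 ± 0.08, 0.0324), and this count was 0 when either low-boron library or high-boron library 2 was left out, 1 without Ctrl library 2 and 6 without Ctrl library 3. In footprints HSP90.1 fell (-0.996 ± 0.20, 0.0151), a call lost when Ctrl library 3 (0.0761) or high-boron library 2 (0.164) was left out.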

How the data were processed

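The deposited tables, 1 per assay, hold raw counts for 27655 genes, and the values were used as deposited by the authors. Per the file names, RNA counts are reads over coding sequences and footprint counts are P-sites (the ribosome site that holds the growing chain) over the same sequences. Bowtie2 and SAMtools are named in the submitters' processing notes. Tool versions, build, annotation, read filters, use of strand and the handling of reads shared by near-identical genes are not given in the sources used here, so no coordinates are printed. Columns name the group and carry the numbers 2 and 3 where the labels start from 1, so columns were assigned to groups by name only.

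Tests used the quasi-likelihood test of edgeR 4.0.16 in R 4.3.3, with TMM scaling, the filterByExpr filter, all 3 groups of an assay in 1 fit and Benjamini-Hochberg adjustment over all genes tested. Translation efficiency was the interaction term of 1 edgeR fit over 12 libraries. SE is the log2 fold change over the root of F. The scripts were tested on simulated data. Genes varied between replicates by a common biological coefficient of 6.92% (mRNA), 14.9% (footprints) and 11.1% (both assays), which greater depth does not reduce. Alternatives were DESeq2 size factors, DESeq2 1.42.0, voom of limma 3.58.1, no filter and a strict one (each group averaging 50 counts or more), organelle-encoded genes left out, 2-group fits, the library number as a block, and each library left out.

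The 36 genes, the other lists and the naming rule were chosen with earlier results of these data known. The lists were written from general knowledge. The rule names every one of the 36 and, from each other list, up to 2 called genes per comparison, the largest change first. Gene names are those of RefSeq TAIR10.1, in which all 36 IDs had a row. Promoter, protein and mRNA sequences and coding lengths were not used here.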

Additional observations from a re-analysis of the deposited data

How the results depend on the processing

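Over all alternatives 5146 values of single genes were recomputed. Of these 4978 kept their side of the threshold and, where called, their direction, 110 calls were lost, 58 were gained and 0 called values changed sign. Leaving out 1 library leaves a lone library in its group, which is assumed to vary like the others. Under it the 18 footprint rises at low boron ranged from 5 to 20, the 2 footprint falls at high boron from 0 to 1, and the 26 lower footprints at high against low boron from 15 to 29. The footprint falls were also 1 under limma voom and under the strict filter, and 0 in the 2-group fit. The 8 mRNA falls at high boron were 14 with no filter, and the 32 mRNA rises at low boron were 27 under the strict filter, which tests fewer genes. ATERDJ3A footprints at high boron were called with no filter (0.0469), and at high against low boron footprints of EBS1, OS9 and BZIP60 were gained under several alternatives (0.0177 to 0.0494). The cause of the other shifts was not tested. Beside the losses without single libraries given above, NAC103 mRNA at low boron was lost under DESeq2 (adjusted p = 0.173), limma voom (0.0545) and the 2-group fit (0.0517). At high boron SHD (0.0617) and PDIL1-1 (0.0986) mRNA were lost in the 2-group fit and PDIL1-1 under DESeq2 (0.0547). In footprints at high boron the 2-group fit lost BIP3 (0.0564) and PDIL2-2 (0.0866), and CRT1a at low boron was lost with DESeq2 size factors (0.0505).

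Whether equal library numbers mark libraries made together is not known here, and a check on 2 libraries per group cannot settle it. The main fits had no term for the number. Footprint library 2 was deeper than library 3 in each supply. The counts were 24206655 and 10015991 at low boron, 12274466 and 6903881 in Ctrl, and 13351151 and 7446195 at high boron. Deviations from the group means of equal-numbered libraries correlated across genes at 0.02, 0.08 and -0.02 in mRNA and at 0.21, -0.01 and 0.15 in footprints. With the number as a replicate block, mRNA gave 32 rises at low boron, 8 falls at high boron and 33 lower genes at high against low boron. Footprints gave 22, 2 and 28, and translation efficiency 0 in each. For translation efficiency the block was set within each assay. A pairing of RNA with footprint libraries was neither checked nor modelled. At low boron the block gained BZIP60 (log2 fold change 0.61, adjusted p = 0.0157), CNX1 (0.0392), OS9 (0.0431) and AT5G07340 (0.0455) in footprints. The planned change of the promoter motif window was not run, because promoter sequences were not used here. The spread of the footprint libraries, larger than that of the RNA libraries, limits what footprints and translation efficiency can show.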
